A study of Mus musculus with 30 samples.

Results

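The proteasome genes of newborn and embryonic mouse cortex were followed with and without Tbr1, a T-box transcription factor of early-born cortical neurons. The set holds every gene whose symbol has the form of a proteasome subunit or proteasome assembly factor (Psma, Psmb, Psmc, Psmd, Psme, Psmf or Psmg with a number) and that was measured at both stages. This gave 48 genes of 16553 measured at both stages. The members were set by name, and the list was chosen with earlier results of these data known. Psmd14 has such a name too and was left out, selected on its lower signal in KO. Psme2 was measured at 1 stage only and is not in the set.

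The animals, on a CD1 background, came from crosses of Tbr1 heterozygotes. Samples labelled Tbr1 -/- are called KO here and wild-type ones WT. The embryonic groups were neocortex at E14.5, with 3 KO and 3 WT arrays. The newborn groups were frontal, parietal and occipital brain tissue at P0.5, with 4 KO and 4 WT arrays in each of the 3 regions. Total RNA was hybridised to Affymetrix arrays, and the values are log2 signals per gene, so that a difference of 1 is a doubling of signal. The null allele is present in every cell of the animal, and the labels do not state the sex, any pooling, or a link between animals and replicate numbers across regions. The p-values therefore measure only the spread between these arrays.

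The proteasome is the protease that degrades proteins tagged with ubiquitin. Its barrel-shaped core particle (20S) is built of alpha rings, which gate the entry, and beta rings, which hold the cutting sites. The regulatory particle (19S) caps the barrel, with a ring of ATPases that unfolds the substrate and non-ATPase subunits that receive ubiquitin chains and remove them. Dedicated chaperones assemble the particles, activators replace or join the 19S cap, and inducible beta subunits, best known from immune cells, exchange the cutting sites. When proteasome activity falls, the transcription factor Nfe2l1 is known to raise the constitutive subunit genes together.

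By textbook role, 7 members were alpha subunits (Psma1 to Psma7), 7 constitutive beta subunits (Psmb1 to Psmb7), 6 regulatory ATPases (Psmc1 to Psmc6) and 10 regulatory non-ATPases. These 30 are called core and regulatory subunits here. The other 18 were the testis alpha subunit Psma8, 4 inducible or thymus beta subunits (Psmb8 to Psmb11), the activators Psme1, Psme3 and Psme4, the inhibitor Psmf1 and 7 assembly factors (Psmd5, Psmd9, Psmd10 and Psmg1 to Psmg4). They also included Psmc3ip and Psme3ip1, which match the name pattern and are not subunits or assembly factors. Each gene was put in its role after the newborn differences had been seen. The split into 30 and 18 is therefore a description and has no test.

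Promoter sequence was looked at because many members shifted together in newborn tissue. RefSeq windows (GRCm38.p6) were at hand for 40 members, 24 of them core and regulatory subunits. The 250 bases before each start were searched on both strands for 9 strings, several of them variants of each other. The strings named here were picked after their counts had been seen. A gene was counted if any of its windows held the string, and there were 32851 windows for 27025 genes. Genes with several windows thus had more chances to match. CCGGAAG, a binding string of ETS factors, was found for 9 of 24 core and regulatory subunits (37.5%), for 4 of 16 other members and for 7.83% of 27025 genes. TGACNNNGC, the core of the antioxidant response element that Nfe2l1 is known to bind, stood in 4 of 24 (16.7%) against 11.5% of all genes. TGAGNNNGC, which differs from it at 1 letter, stood in 7 of 24 (29.2%) against 16.3%. CCAAT was found for 37.5% of the core and regulatory subunits and for 37.5% of all genes.
The windows below come from subunits called in newborn frontal tissue and show the 3 strings in place, in the direction of the gene, with the matching letters in capitals (on the opposite strand for Psmc1).
Psmd1, chr1:86064375-86064423, plus strand: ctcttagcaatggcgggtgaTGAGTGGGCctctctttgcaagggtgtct
Psmc2, chr5:21786593-21786641, plus strand: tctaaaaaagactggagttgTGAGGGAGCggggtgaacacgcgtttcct
Psmb5, chr14:54618014-54618062, minus strand: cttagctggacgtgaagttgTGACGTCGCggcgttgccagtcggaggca
Psmd4, chr3:95042713-95042759, minus strand: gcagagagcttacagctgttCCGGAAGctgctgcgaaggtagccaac
Psmc1, chr12:100110154-100110200, plus strand: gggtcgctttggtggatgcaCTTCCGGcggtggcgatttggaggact
A match shows that the letters are present in the window and nothing about binding in these tissues.

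Some arrays stood apart. At E14.5 KO replicate 1 agreed least with its own group (mean correlation over genes 0.957). At P0.5 the lowest such values were 0.985 for WT frontal replicate 4 and 0.988 for KO parietal replicate 2. The Y-linked genes Eif2s3y, Kdm5d and Uty differed between the frontal groups, with a mean log2 signal of 5.39 ± 0.41 in KO (SD, n = 4) and 9.04 ± 0.07 in WT (SD, n = 4). Xist, made from the inactive X chromosome, was 12.0 to 12.2 in the 4 KO and 5.65 to 6.39 in the 4 WT frontal arrays. In parietal tissue 2 of 4 KO and 3 of 4 WT arrays had a Y-linked mean over 7.5, and in occipital tissue 3 of 4 KO and 4 of 4 WT arrays did. Genotype and Y-linked level thus cannot be told apart by group membership within frontal tissue, and fits with that level as a covariate are given beside the results. Mean signals of 6 cortical neuron markers were 10.76 to 10.95 in the KO frontal arrays and 10.80 to 10.98 in the WT frontal arrays, and 1 of the 6, Neurod6, was called lower in KO.

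Psmd14, the deubiquitinase of the regulatory particle, is the direct neighbour of Tbr1, in the order Tank, Psmd14, Tbr1, Slc4a10 and Dpp4 along the chromosome. It was left out because it was lower in KO, and its values are a description with no test. In frontal tissue its log2 signal was 10.32, 10.15, 10.12 and 10.36 in KO and 11.13, 11.21, 11.02 and 10.93 in WT, a difference of -0.84. The difference was -1.12 in parietal and -0.88 in occipital tissue. In each region all 4 KO arrays lay below all 4 WT arrays. At E14.5 its signal was 7.54, 9.59 and 9.26 in KO and 9.40, 9.36 and 9.67 in WT, so that KO replicates 1 and 3 lay below every WT array, replicate 1 by far the lowest, and KO replicate 2 lay within the WT range. Tbr1 itself was 8.69 in KO replicate 1 and 7.23 and 7.57 in KO replicates 2 and 3, against 8.89 to 9.36 in WT.

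In newborn frontal tissue the members were higher in KO. Of the 48 members 30 rose and 0 fell (62.5%), where 4.70% of 19938 genes rose and 2.81% fell, at an adjusted p under 0.05 in limma over all genes. The 30 that rose were the 30 core and regulatory subunits, and 0 of the other 18 passed the test. Psmd14, also a regulatory non-ATPase, was left out for its lower signal in KO. That 0 members fell, here and in the other newborn KO comparisons, thus depends on this choice. The median difference was 0.57 (log2) over the core and regulatory subunits, with a range of 0.33 to 0.97, or 1.26-fold to 1.96-fold. It was 0.06 over the other 18 and -0.03 over all genes. Had Psma8 been counted with the alpha subunits, 7 of 8 would have been called, and with Psmd5, Psmd9 and Psmd10 among the non-ATPases 10 of 13. In bulk tissue a larger share of cells rich in these RNAs and more RNA per cell cannot be told apart.

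**Figure D1:**
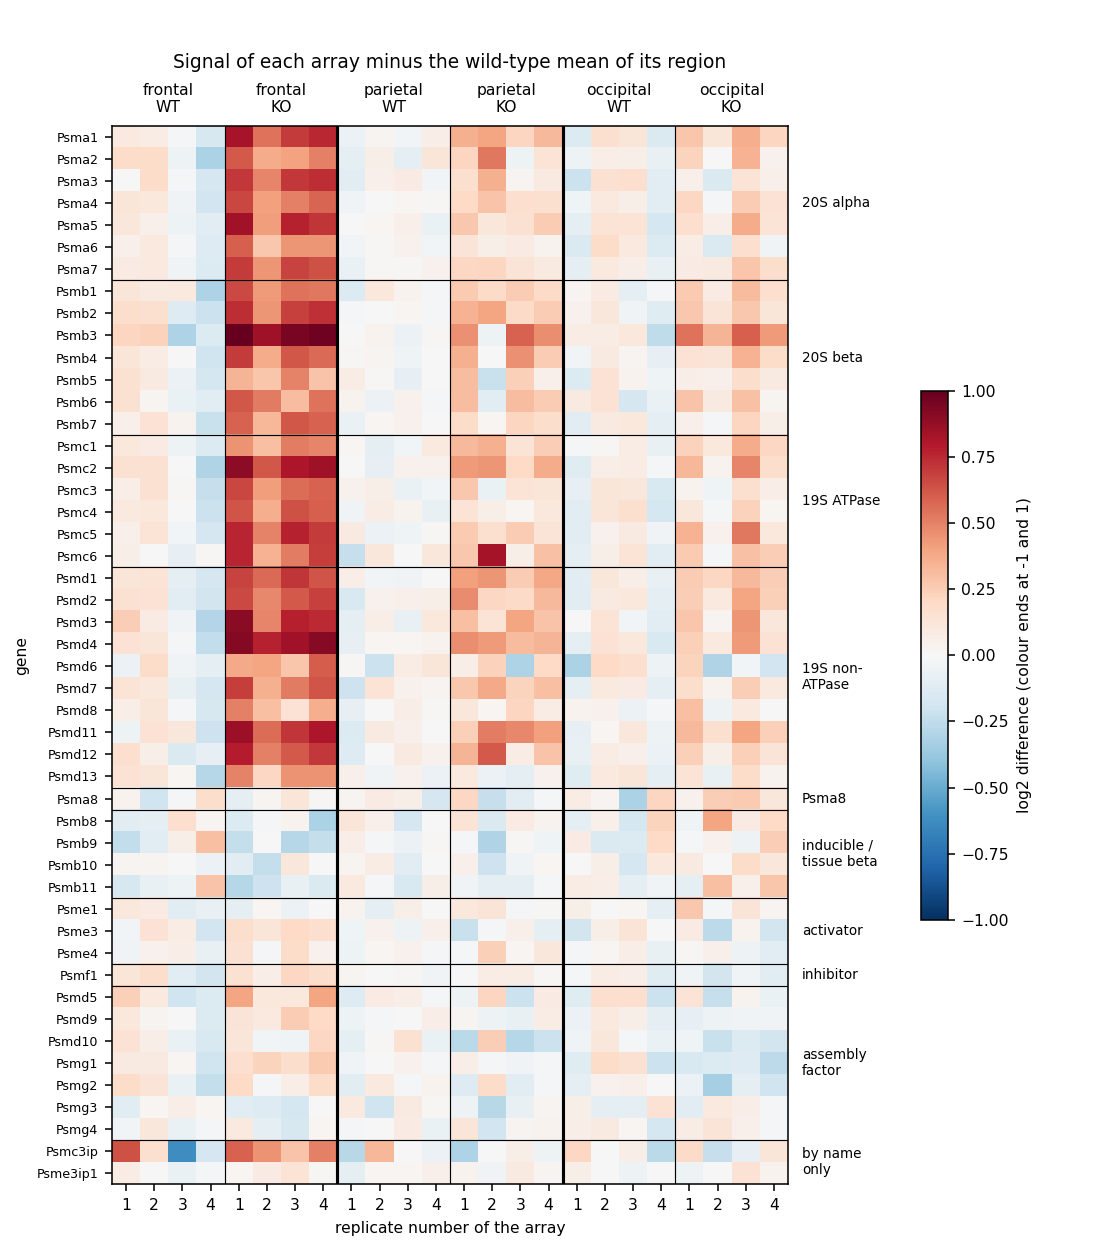
Log2 signal of each of the 48 members (rows, by role) in each of the 24 P0.5 arrays (columns), minus the WT mean of the gene in that region; red is higher, blue lower. The core and regulatory rows are red in the KO frontal columns, where the array medians over the 30 genes were 0.42 to 0.68, and 30 of 30 genes lay above the WT mean in each of these columns. In the KO parietal columns 24 to 30 of the 30 genes lay above the WT mean, and in the KO occipital columns 19 to 30. In the 4 WT frontal columns 28, 30, 8 and 1 of the 30 did.

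Each frontal KO array showed the shift. The median over the 30 core and regulatory subunits, relative to the WT mean, was 0.68, 0.42, 0.62 and 0.63 in the 4 KO arrays, and all 30 genes lay above their WT mean in each. In the WT arrays it was 0.12, 0.11, -0.03 and -0.17. There 28, 30, 8 and 1 of the 30 genes lay above their WT mean. The genes of an array thus moved together in WT too, and that count alone does not set the KO arrays apart. All 4 KO values lay above all 4 WT values for 31 of the 48 members, where 6.42% of all genes did so. For the other 18 members the array medians were 0.01 to 0.11 in KO and -0.07 to 0.06 in WT.

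All 7 alpha subunits rose in frontal KO tissue, with differences of 0.44 to 0.70. Psma1 had log2 signals of 11.09, 10.81, 10.97 and 11.02 in KO and 10.37, 10.34, 10.26 and 10.11 in WT. The groups did not overlap. The difference was 0.70 (SE 0.08, limma adjusted p = 1.1707e-06), or 1.63-fold. Psma7 differed by 0.61 (SE 0.07, limma adjusted p = 1.1707e-06), from 9.95 ± 0.11 in WT to 10.56 ± 0.12 in KO (SD, n = 4 each). The testis subunit Psma8, among the dimmest 30% of genes in this tissue, differed by 0.01.

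All 7 constitutive beta subunits rose too, by 0.35 to 0.97. The difference was largest for Psmb3, a structural beta subunit without a cutting site, also among all 30. Its signals were 11.31, 11.04, 11.14 and 11.17 in KO and 10.41, 10.43, 9.89 and 10.06 in WT. The groups did not overlap, and the difference was 0.97 (SE 0.12, limma adjusted p = 4.3748e-06), or 1.96-fold. The catalytic subunits are Psmb5, Psmb6 and Psmb7, and their differences were 0.35, 0.50 and 0.53. The inducible subunits Psmb8, Psmb9 and Psmb10 and the thymus subunit Psmb11 did not pass the test, with differences of -0.19 to -0.06. Psmb9 had signals of 8.08, 8.32, 8.03 and 8.08 in KO and 8.08, 8.21, 8.38 and 8.62 in WT. Psmb11 had 7.02, 7.10, 7.23 and 7.16 in KO and 7.15, 7.23, 7.25 and 7.59 in WT, and for both genes the groups overlapped.

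Markers of cells that make inducible subunits were looked at beside these values. Of 8 microglia and immune markers 3 (C1qa, C1qb and Cd68) were higher in KO frontal tissue and 0 lower, where 4.70% of all genes were higher and 2.81% lower. All 8 had a difference above 0, with a median of 0.37. Their mean log2 signal per array was 7.67 to 8.09 in KO and 7.20 to 7.82 in WT. Of 6 interferon response genes 0 were called. Of 5 blood vessel markers 1, Kdr, was called lower. All 5 had a difference below 0, from -0.89 to -0.41, with array means of 7.65 to 8.46 in KO and 8.05 to 9.26 in WT. The part of these cell types in the shift of the subunits was not tested.

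The 6 regulatory ATPases rose by 0.43 to 0.79 in frontal KO tissue. Psmc2 had signals of 10.55, 10.28, 10.46 and 10.51 in KO and 9.80, 9.81, 9.66 and 9.35 in WT, with no overlap. Its difference was 0.79 (SE 0.10, limma adjusted p = 3.7297e-06), or 1.73-fold. Psmc1 had 10.66, 10.51, 10.72 and 10.69 in KO and 10.32, 10.29, 10.16 and 10.07 in WT, again with every KO array above every WT array.

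The 10 regulatory non-ATPases rose by 0.33 to 0.86. Psmd4, a receptor for ubiquitin chains, had the smallest p among the members, with signals of 10.35, 10.20, 10.27 and 10.34 in KO and 9.57, 9.55, 9.42 and 9.18 in WT. Its groups were far apart, and the difference was 0.86 (SE 0.08, limma adjusted p = 2.041e-07), or 1.81-fold. Psmd1, the large scaffold subunit of the base, had 11.69, 11.58, 11.73 and 11.64 in KO and 11.13, 11.15, 10.93 and 10.85 in WT. It differed by 0.65 (SE 0.07, limma adjusted p = 4.041e-07). Psmd11, a scaffold subunit of the lid, differed by 0.73 (SE 0.08, limma adjusted p = 1.4845e-06), from 9.74 ± 0.16 in WT to 10.47 ± 0.13 in KO (SD, n = 4 each). Psmd6 had the weakest support of the 30, with a difference of 0.41 (SE 0.12, limma adjusted p = 0.0379).

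The 7 assembly factors, the 3 activators and the inhibitor did not pass the test in frontal tissue. Differences of the assembly factors ran from -0.10 to 0.25. Psmg1, a chaperone of the alpha ring, had signals of 9.30, 9.36, 9.31 and 9.40 in KO and 9.23, 9.23, 9.15 and 8.93 in WT. Its groups did not overlap, with a difference of 0.21 (SE 0.08, limma adjusted p = 0.0944). Psmd10, a chaperone of the regulatory base, had 9.06, 8.92, 8.90 and 9.15 in KO and 9.09, 9.01, 8.88 and 8.79 in WT, which overlapped. The activator Psme4 differed by 0.09 and the inhibitor Psmf1 by 0.15. Without WT frontal replicate 1, Psmc3ip (0.67, limma adjusted p = 0.00676) and Psmd9 (0.20, limma adjusted p = 0.0452) were called as well.

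**Figure D2:**
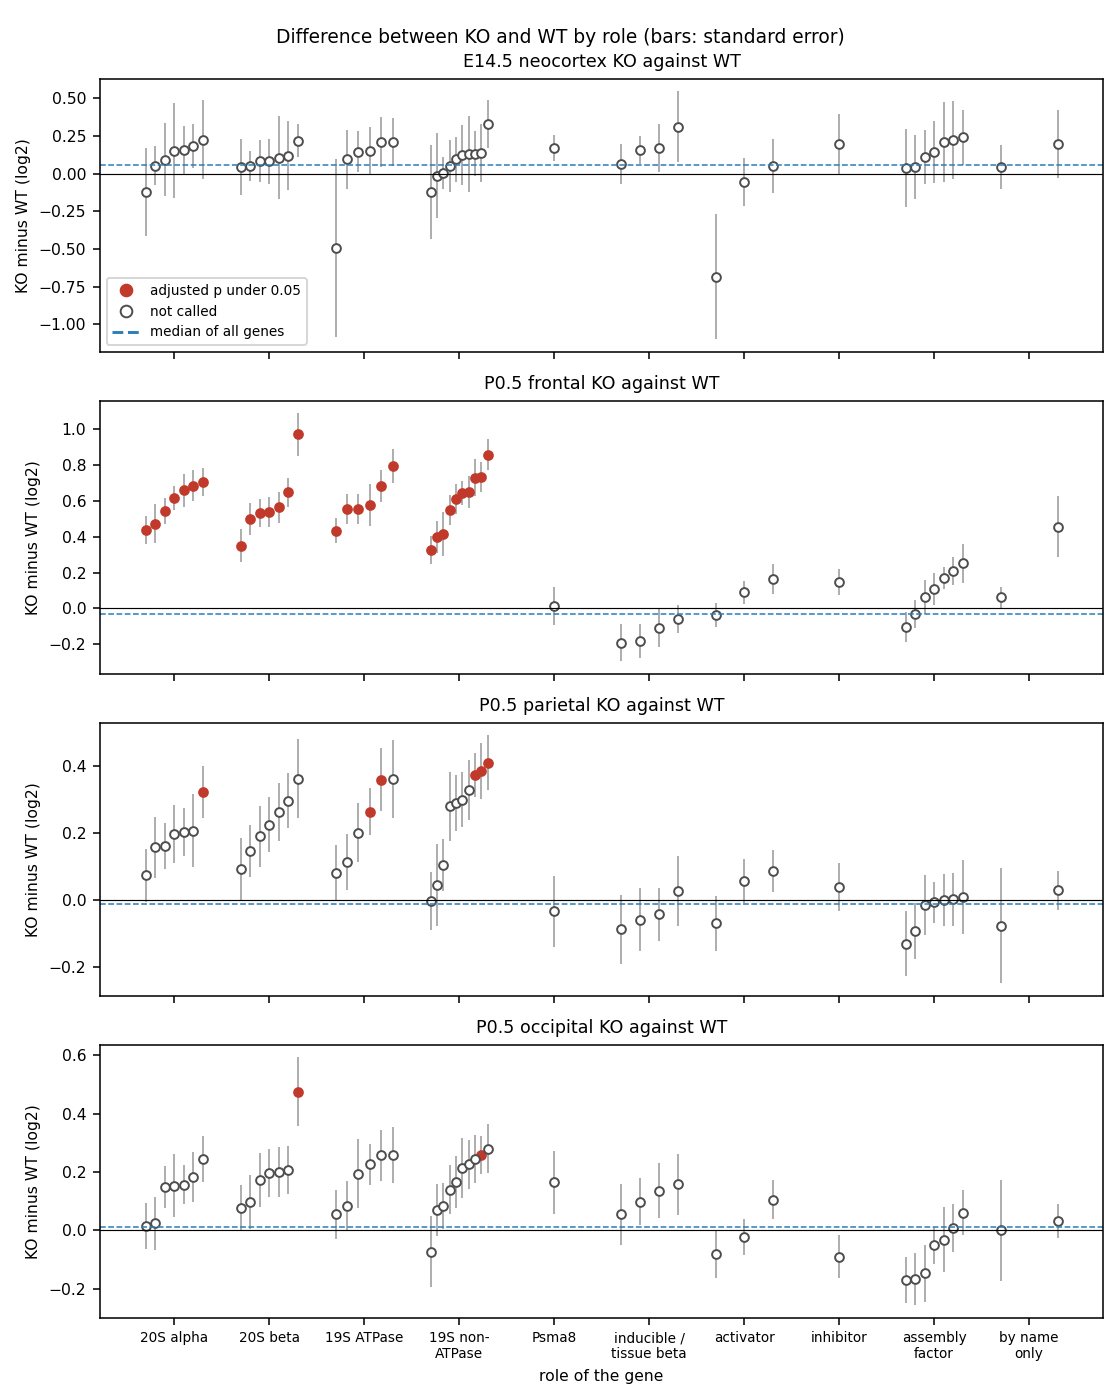
KO minus WT (log2, y axis) of the 48 members by role (x axis) at E14.5 and in the 3 P0.5 regions; bars are standard errors, red points have an adjusted p under 0.05 and the dashed line is the median of all genes. In frontal tissue the 4 left-hand roles lie at 0.33 to 0.97, and at E14.5 0 members are red.

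In parietal tissue 6 of 48 members rose and 0 fell (12.5%), where 1.06% of all genes rose and 0.747% fell. They were Psmd1 (0.37), Psmd11 (0.41), Psmd4 (0.39), Psma1 (0.32), Psmc2 (0.36) and Psmc1 (0.26), all core and regulatory subunits. The median difference over the 30 was 0.22, with 29 of the 30 above 0, against -0.01 over the other 18 and -0.01 over all genes. The KO arrays all lay above the WT arrays for 15 members, where 3.68% of all genes did so.

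Psmd1 had parietal signals of 11.44, 11.47, 11.28 and 11.41 in KO and 11.088, 10.998, 10.990 and 11.020 in WT. The groups did not overlap, and the difference was 0.37 (SE 0.07, limma adjusted p = 0.00135). Psmd11 had 10.19, 10.46, 10.43 and 10.36 in KO and 9.816, 10.039, 10.0002 and 9.951 in WT, also without overlap. Its difference was 0.41 (SE 0.08, limma adjusted p = 0.00502). Toward lower values Psmd10 and Psmg3 had the smallest p, and neither passed the test. Psmd10 had 8.75, 9.26, 8.73 and 8.80 in KO and 8.92, 9.03, 9.17 and 8.95 in WT, with 1 KO array far above the other three. Psmg3, a chaperone of the alpha ring, had 7.424, 7.200, 7.404 and 7.502 in KO and 7.58, 7.27, 7.57 and 7.49 in WT. The parietal count was sensitive to the arrays used: it was 3 without KO replicate 1, KO replicate 4, WT replicate 1, WT replicate 2 or WT replicate 3, and 10 without KO replicate 3. Array weights gave 16 calls. Over all genes 0.672% to 1.08% were called higher without 1 array, and 3.28% with array weights.

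In occipital tissue 2 of 48 members rose and 0 fell (4.17%), where 0.762% of all genes rose and 0.577% fell. Psmb3 had signals of 10.72, 10.51, 10.77 and 10.60 in KO and 10.25, 10.25, 10.28 and 9.92 in WT. The groups did not overlap, and the difference was 0.48 (SE 0.12, limma adjusted p = 0.0373). Psmd1 had 11.39, 11.34, 11.46 and 11.38 in KO and 11.03, 11.25, 11.20 and 11.06 in WT, a difference of 0.26 (SE 0.07, limma adjusted p = 0.0482). The count was 0 or 1 with any 1 of the 8 occipital arrays left out. The median difference over the 30 core and regulatory subunits was 0.18, against 0.00 over the other 18 and 0.01 over all genes. For 6 members all KO arrays lay above all WT arrays, where 3.76% of all genes did so. Psmg1 (-0.17) and Psmg2 (-0.17), partners in 1 alpha ring chaperone, had the smallest p toward lower values without passing the test. Psmg1 had 9.15, 9.17, 9.18 and 9.05 in KO and 9.18, 9.49, 9.46 and 9.09 in WT. Psmg2 had 8.71, 8.44, 8.68 and 8.57 in KO and 8.67, 8.81, 8.82 and 8.77 in WT.

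**Figure D3:**
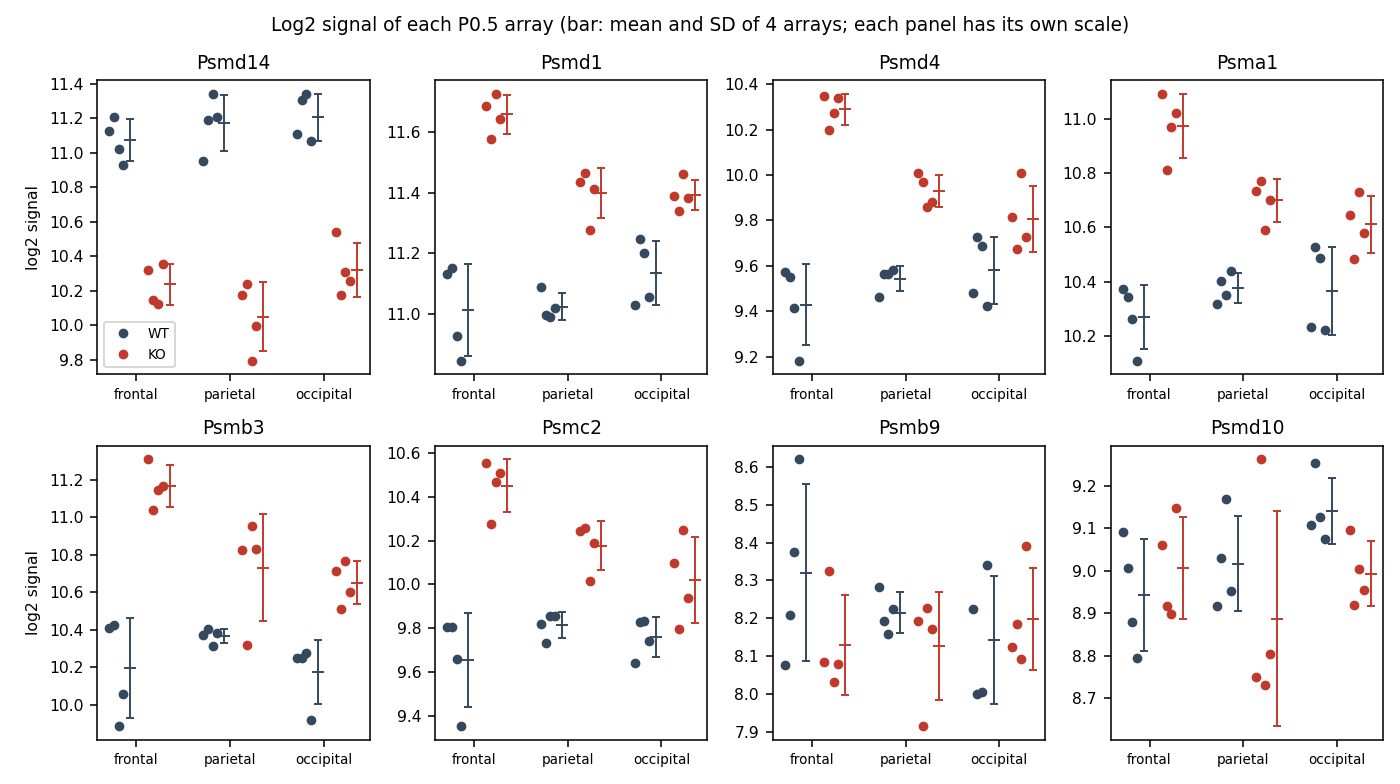
Log2 signal (y axis, own scale per gene) of Psmd14, 5 core and regulatory subunits, Psmb9 and Psmd10 in every P0.5 array, by region (x axis) and genotype; bars are the mean and SD of 4 arrays. Psmd14 is lower in KO in each region, Psmd1 is higher in KO in each region, and the groups of Psmb9 overlap in each region.

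Arrays of the same genotype and replicate number were also averaged over the 3 regions, and these averages are not values per animal. Over the regions 26 of 48 members rose and 0 fell (54.2%), where 4.71% of all genes rose and 2.75% fell. The 26 were core and regulatory subunits, and Psma6, Psmb5, Psmd6 and Psmd13 were the 4 of the 30 that did not pass the test. The median difference over the 30 was 0.33, against 0.02 over the other 18 and -0.01 over all genes. The smallest p were those of Psmd1, Psmd4, Psmc2, Psma1 and Psmd11. Psmd1 had averages of 11.50, 11.46, 11.49 and 11.48 in KO and 11.08, 11.13, 11.04 and 10.97 in WT, a difference of 0.43 (SE 0.04, limma adjusted p = 1.48008e-05), or 1.34-fold. Psmd4 had 10.06, 9.95, 10.05 and 9.98 in KO and 9.51, 9.61, 9.56 and 9.40 in WT, a difference of 0.49 (SE 0.05, limma adjusted p = 3.60405e-05). For both genes every KO average lay above every WT average, as it did for 25 members and for 7.21% of all genes. Psmc2 differed by 0.47, Psma1 by 0.42 and Psmd11 by 0.48. Psmb3 again had the largest difference among the members, 0.60 (SE 0.07, limma adjusted p = 0.000133). Outside the core and regulatory subunits the differences ran from -0.07 (Psmb9 and Psmd10) to 0.13 (Psmc3ip).

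Whether the shift differed between regions was tested directly. KO minus WT was larger in frontal than in occipital tissue for 3 of 48 members and smaller for 0, where 0.236% of all genes were called larger and 0.181% smaller. The difference between the regions was 0.63 for Psmd4 (SE 0.12, limma adjusted p = 0.0136), 0.64 for Psma3 (SE 0.13, limma adjusted p = 0.0262) and 0.46 for Psma7 (SE 0.10, limma adjusted p = 0.0314). The 30 core and regulatory subunits all had a larger frontal value, with a median of 0.44, and 27 of them did not pass the test. Psma3, also called lower in WT frontal than in WT occipital tissue, had the largest difference of the 3 called. Its frontal signals were 11.04, 10.82, 11.05 and 11.07 in KO and 10.34, 10.52, 10.32 and 10.17 in WT. Its occipital signals were 10.70, 10.51, 10.79 and 10.70 in KO and 10.43, 10.80, 10.82 and 10.54 in WT, where the groups overlapped. Over the 30 subunits the median occipital difference was 0.18. Between frontal and parietal tissue 0 members were called, where 0.01% of all genes were called either way, and between parietal and occipital tissue 0 members were called, where 0.01% of all genes were. With the Y-linked signal as a covariate 0 members were called for frontal against occipital tissue, and the adjusted p were 0.117 for Psmd4, 0.170 for Psma3 and 0.163 for Psma7. Single arrays moved this count: it was 16 without KO frontal replicate 2, 12 and 6 without WT frontal replicates 1 and 2, 11 and 7 without WT occipital replicates 1 and 4, and 5 without KO occipital replicate 3. It was 1 without KO frontal replicate 1, 3 or 4, WT frontal replicate 4, KO occipital replicate 2 or WT occipital replicate 2 or 3.

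Among WT arrays few members were called between regions. In frontal against occipital tissue Psma3 was lower (-0.31, SE 0.09, limma adjusted p = 0.0443) and 0 members were higher, where 3.77% of all genes were lower and 2.26% higher. This call was lost without WT frontal replicate 1 (limma adjusted p = 0.0510), 3 or 4, and without WT occipital replicate 2 or 3. The count was 0 without WT frontal replicate 3 or 4 or WT occipital replicate 2 or 3. It was 3 without WT frontal replicate 1, where Psma3 was not among the 3, and 3 without WT frontal replicate 2 or WT occipital replicate 1, where it was. In frontal against parietal tissue 0 members were called, where 0.171% of all genes were, and in parietal against occipital tissue 0 members, where 0.451% were. The median differences over the 48 members were -0.11, -0.10 and -0.01 in these 3 comparisons. In frontal against occipital tissue 27 of the 30 core and regulatory subunits lay below 0, with a median of -0.11. The median of all genes was 0.025 there. The WT frontal arrays are also the reference of the frontal KO differences.

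At E14.5 0 of 48 members were called, as were 0 of 18194 genes (0%) in limma, and 0 members had an unadjusted p under 0.05, where 5.76% of all genes did. The median difference was 0.12 over the members, 0.11 over the core and regulatory subunits and 0.06 over all genes. Psmd7, a partner of Psmd14 in the lid, had the smallest p, with signals of 8.95, 9.12 and 9.01 in KO and 8.64, 8.84 and 8.62 in WT. The groups did not overlap, and the difference was 0.33 (SE 0.16, limma adjusted p = 0.880). Psmb1 had 11.33, 11.25 and 11.25 in KO and 11.01, 11.12 and 11.04 in WT, the other member of 48 whose groups did not overlap with KO above, where 7.43% of all genes did so. Psme4 had 6.51, 8.28 and 7.81 in KO and 8.23, 8.23 and 8.20 in WT. Psmc6 had 5.67, 8.04 and 6.94 in KO and 7.93, 7.53 and 6.67 in WT. In both genes the lowest KO value was that of replicate 1, and without that array 0 members and 2 of all genes were called. The difference of Psmc6 was -0.49 with that array and 0.11 without it. At this stage 27 members had several probe sets, and for 11 of the 27 these disagreed on the sign of the difference; at P0.5 5 members had several, and all 5 agreed. With 3 arrays a group and no pairing in the fit, the SE of the members at E14.5 ran from 0.09 to 0.59. In frontal tissue it ran from 0.06 to 0.17. The stages were not compared by a test.

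Genes that work with the proteasome were taken from a list of 30, of which 20 were measured at P0.5. In frontal tissue 9 of the 20 rose and 0 fell, where 4.70% of all genes rose. In parietal tissue 1 rose (Nploc4), where 1.06% of all genes did, and in occipital tissue 0, where 0.762% did. Over the regions 10 rose and 0 fell, where 4.71% of all genes rose. At E14.5 0 of 21 were called, where 0% of all genes were. The 4 with the smallest p over the regions were Nploc4, a cofactor of the unfoldase Vcp (0.36, SE 0.04, limma adjusted p = 0.000137), the proteasome-bound deubiquitinase Usp14 (0.36, SE 0.05, limma adjusted p = 0.000610), the proteasome-bound thioredoxin Txnl1 (0.31, SE 0.05, limma adjusted p = 0.000850) and Vcp itself (0.34, SE 0.05, limma adjusted p = 0.000920). In frontal tissue Vcp differed by 0.56, from 11.36 ± 0.12 in WT to 11.92 ± 0.12 in KO (SD, n = 4 each). Nfe2l1, singled out after its values were seen, differed by 0.09 in frontal tissue and by 0.02 over the regions and was not called. These are RNA signals, and the activity of the factor was not measured.

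The Y-linked level was then put into the fit. Within frontal tissue that level was low in all 4 KO and high in all 4 WT arrays. The frontal adjustment thus rests on a slope set mostly by the parietal arrays and the KO occipital arrays, where the level varied within a group, and the fit assumes the same slope in frontal tissue. In frontal tissue 22 of the 30 core and regulatory subunits were called with it, where 0.813% of all genes were called higher, and Psma2, Psma6, Psmb5, Psmc6, Psmd6, Psmd7, Psmd8 and Psmd13 were not. The median over all 30 was 0.57 with and without it, but single genes moved. Psma2 went from 0.47 to 0.28 (limma adjusted p = 0.507) and Psmc6 from 0.58 to 0.34 (limma adjusted p = 0.399). Psmd4 differed by 0.79 (SE 0.12, limma adjusted p = 0.000355) and Psmb3 by 1.05 (SE 0.16, limma adjusted p = 0.000546). Over the regions 22 members were called with it, 21 of them among the 26, where 2.54% of all genes were called higher. In parietal tissue the count was 3, against 0.828% of all genes, and in occipital tissue 1, against 0.617%. The slope on the Y-linked level itself was called for 0 of 48 members in limma (1 at an unadjusted p under 0.05) and for 5 of 19938 genes. The 3 Y-linked genes that form the level are among the 19938. With so few calls over all genes, 0 of 48 does not set the members apart.

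**Figure D4:**
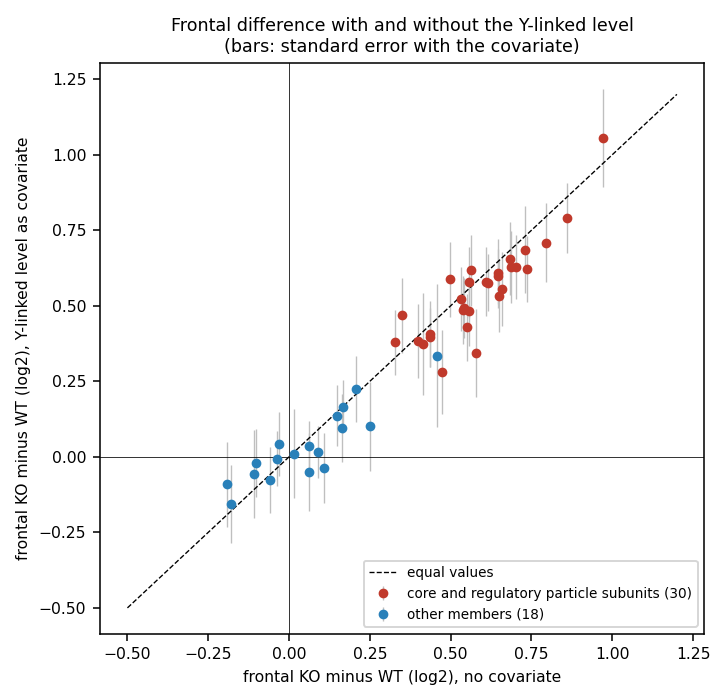
KO minus WT (log2) of the 48 members in frontal tissue without (x axis) and with (y axis) the Y-linked signal as a covariate; bars are standard errors with the covariate and the dashed line marks equal values. The median of the 30 core and regulatory subunits is 0.57 on both axes, and single genes lie off the line, such as Psma2 at 0.47 without and 0.28 with the covariate and Psmc6 at 0.58 and 0.34.

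In parietal tissue KO arrays of both kinds were present. The 2 KO arrays with a high Y-linked mean, 9.11 and 9.05, had medians over the core and regulatory subunits of 0.27 and 0.20 above the WT mean. The 2 with a low mean, 5.42 and 5.36, had 0.21 and 0.25. The ranges of both kinds overlapped, and all 4 lay above the WT parietal medians of -0.03 to 0.03. In occipital tissue the 3 KO arrays with a high Y-linked mean had 0.23, 0.05 and 0.13, and the 1 with a low mean had 0.29, against -0.10 to 0.10 in WT. Some arrays with a high Y-linked mean also had Xist at 7.75 to 8.77.

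**Figure D5:**
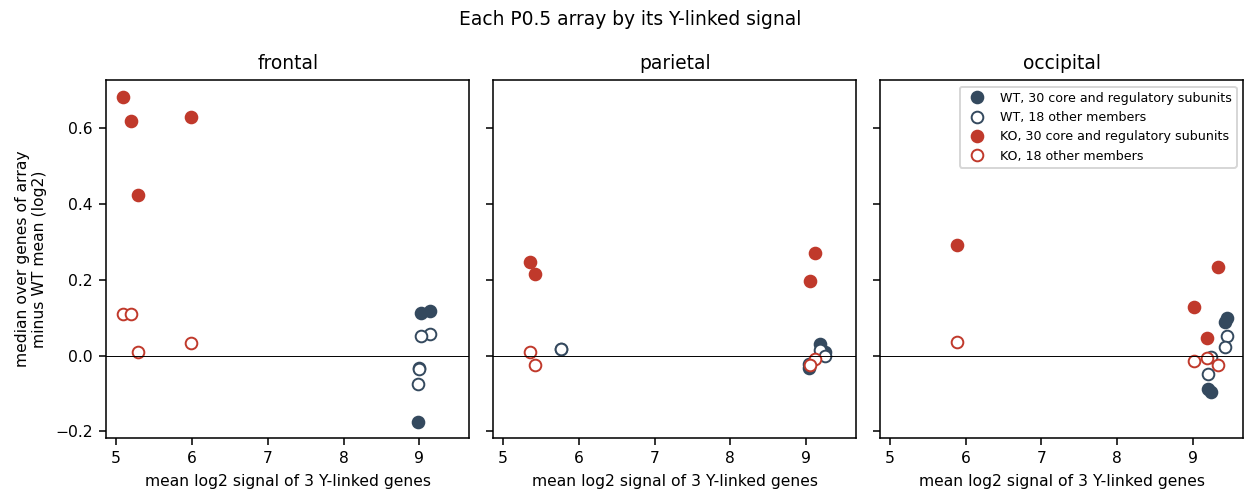
Median over genes of each P0.5 array minus the WT mean (log2, y axis) against the mean log2 signal of 3 Y-linked genes (x axis), by region; filled points are the 30 core and regulatory subunits and open points the 18 other members. In the parietal panel the 4 KO arrays, at Y-linked levels of 5.36 to 9.11, have filled points at 0.20 to 0.27.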

How the data were processed

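The log2 signals used here were deposited by the authors, and the submitters' processing notes name Affymetrix Expression Console 1.1 and RMA. They were not normalised again. The stages form separate tables. The label protocol names 1 array type for all samples, but the E14.5 probe set names are of another type, so the stages were fitted apart. The number of arrays limits the precision. Probe sets naming exactly 1 gene were kept, and the 1 with the highest mean per gene was used (18194 genes at E14.5, 19938 at P0.5).

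KO and WT were compared with limma 3.58.1 in R 4.3.3 (two-sided, eBayes with a trend on intensity), with Benjamini-Hochberg adjustment over all genes of each of 11 comparisons and calls under 0.05. The 24 P0.5 arrays shared 1 fit of 6 groups. For the comparison over regions, arrays sharing genotype and number were averaged, which left 4 KO and 4 WT values. These are not values per animal. KO replicate 1, for example, had a Y-linked mean of 5.09 in frontal, 9.11 in parietal and 9.32 in occipital tissue. The SE and p-values over the regions therefore depend on a grouping by number. The scripts were tested on simulated data.

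The members, lists, comparisons and alternatives were chosen with earlier results of these data known. The role of each gene, the promoter strings shown and the Y-linked threshold of 7.5 were chosen after the values had been seen. Named are all members called in a comparison (where over 25, the 5 with the smallest p), and values per array are given for the smallest p each way and per role. At E14.5 same-numbered KO and WT arrays deviated together (correlations of 0.125 to 0.445), so an alternative fit took the numbers as pairs, with a replicate block. With the block 0 members were called there too, and the E14.5 values given above come from the fit without it. The same held for WT parietal with WT occipital arrays (0.124 to 0.276), also with 0 members called under the block. That pairing was by number and not by animal. WT parietal replicate 2 had Xist at 12.14, while WT occipital replicate 2 had it at 6.17. Their Y-linked levels were 5.76 and 9.44, so these arrays cannot come from the same animal. The other alternatives were averaging the probe sets of each gene, dropping the dimmest 30% of genes, no trend, array medians subtracted, array weights, only the arrays compared, a fit of the 24 arrays for the mean over regions, at E14.5 only probe sets without shared-target name endings, the Y-linked level as a covariate and leaving out each array in turn. Promoters came from RefSeq (GRCm38.p6), and protein sequences were not used here.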

Additional observations from a re-analysis of the deposited data

Results flagged for a closer look

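In 5 of 102 checks (17 genes in 6 groups of 4 arrays) 1 array lay far from the other three of its group, and chance alone flags about 1 in 20. Psmb1 was 8.76 in WT frontal replicate 4, against 9.15 to 9.19 in the others. Psmb3 was 9.92 in WT occipital replicate 4, against 10.25 to 10.28. Psmd4 was 9.46 in WT parietal replicate 1, against 9.56 to 9.58. Psmc6 was 10.96 in KO occipital replicate 2, against 11.22 to 11.27. Psmd10 was 9.26 in KO parietal replicate 2, against 8.73 to 8.80. WT frontal replicate 4 and KO parietal replicate 2 are also the P0.5 arrays that agreed least with their groups.

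KO minus WT differed between frontal and occipital tissue, by an interaction contrast in limma, for Psmd4 (0.63, adjusted p = 0.0136), Psma3 (0.64, adjusted p = 0.0262) and Psma7 (0.46, adjusted p = 0.0314). With the Y-linked signal as a covariate the differences were 0.58, 0.56 and 0.43 and none of the 3 was called.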

How the results depend on the processing

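The frontal and over-region results kept their direction and stayed within 1.5 times their counts under the alternatives tried. The frontal count of 30 members became 22 with the Y-linked covariate, 29 with the replicate block (Psmd6 at an adjusted p of 0.0524 in limma), 28 with only the frontal arrays and 27 to 31 without 1 array, and the count over the regions, 26, became 22 to 28 (24 with the block). Without 1 array 2.43% to 7.01% of all genes were called higher in frontal tissue. The smaller counts came elsewhere. In parietal tissue 6 calls became 3 with array medians subtracted, 16 with array weights, 4 with the block, 3 with the Y-linked covariate and 3 to 10 without 1 array. With only high Y-linked arrays, an alternative added after the data had been seen, parietal calls were 2 and the median over members was 0.15 (0.11 with all arrays). In occipital tissue 2 calls became 0 with array medians subtracted or no trend, 4 with weights and 1 with the block, the covariate, only the arrays compared or only high Y-linked arrays, and 0 to 1 without 1 array. With array weights 3.28% of all genes were called higher in parietal and 1.68% in occipital tissue. For WT frontal against occipital tissue 1 call became 2 with the mean of probe sets, the dim filter or the covariate, 0 with array medians subtracted, no trend or only the arrays compared, and 0 to 3 without 1 array. For KO minus WT in frontal against occipital tissue 3 calls became 5 with the dim filter, 17 with weights, 7 with the block, 0 with the covariate and 1 to 16 without 1 array. Frontal against parietal gave 3 calls with weights and 0 to 1 without 1 array, and the parietal against occipital median ran from -0.0014 to 0.080 without 1 array. The block changed no count elsewhere by over 1.5 times; at P0.5 the numbers were not taken as pairs, apart from WT parietal with WT occipital arrays (lowest correlation of same-numbered frontal KO and WT arrays -0.471). For single genes, 1333 values under alternatives gave 128 lost calls and 2 sign changes of values that were never called, with 0 called values reversed. The causes were not tested.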
